A study of Mus musculus with 42 samples.

Results

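GFP-positive cortical interneurons of the G30 mouse line were compared between 2 areas, the somatosensory cortex (G30_SS) and the cingulate cortex (G30_Cg). Members were taken from the array titles: 3 arrays of G30_SS and 3 of G30_Cg, 6 of the 42 Affymetrix mouse arrays in the study. Every array of either group held amplified RNA of GFP-expressing interneurons from adult male mice, which had been picked by hand after brain slices were digested with pronase E and triturated. The labels give a mixed G30 and C57BL/6j strain for all 6 arrays except G30_Cg array 1, labelled as G30 transgenic. G30_SS arrays 1, 2 and 3 held 41, 66 and 54 cells from mice of postnatal day 57, 59 and 69, and G30_Cg arrays 1, 2 and 3 held 61, 51 and 64 cells from mice of postnatal day 68, 57 and 59. The series design states that the replicates came from different animals; whether a G30_SS and a G30_Cg array of like age came from 1 mouse is not given. Set beside them were layer 5 pyramidal neurons of the same areas from the YFPH line (YFPH_SS and YFPH_Cg, 3 arrays each). Also used were unsorted cingulate cells (G42_Homog_Cg and GIN_Homog_Cg) and sorted cingulate interneurons (G42_Cg and GIN_Cg) of 2 other lines, 3 arrays each. YFPH_SS arrays 2 and 3, YFPH_Cg array 2 and GIN_Cg array 2 came from mice older than postnatal day 69. YFPH_SS array 1, YFPH_Cg array 1 and G42_Cg array 2 came from mice within the age range of the G30 arrays. Ages were not listed for YFPH_Cg array 3, for arrays 1 and 3 of GIN_Cg and G42_Cg, or for the unsorted cells. YFPH_Cg arrays 1 and 2 held more cells than any of the 6 G30 arrays. YFPH_SS array 3, GIN_Cg array 2 and G42_Cg array 2 held fewer, and unsorted cells had no cell number listed. Whether age or cell number had a part in differences between the lines was not tested.

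In the G30 line, GFP is driven by the promoter of Gad2, which encodes a GABA-synthesising enzyme, and in the cortex it marks a fraction of the interneurons that arise in the caudal ganglionic eminence. That lineage includes cells that make vasoactive intestinal peptide (Vip), cholecystokinin (Cck), calretinin (Calb2) or reelin (Reln), and nearly all of them carry the ionotropic serotonin receptor Htr3a. A pool of such cells is therefore a mixture of types, and its profile depends on which types were picked. Somatosensory cortex is a sensory area with a well developed layer 4, and cingulate cortex is a limbic association area with little or no granular layer.

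Values are log2 of the intensity plus 16, called the log2 level below, and a difference is G30_SS minus G30_Cg on that scale with its standard error (n = 3 arrays each). GABA genes were high in all 6 arrays: the vesicular GABA transporter Slc32a1 lay between 12.91 and 13.19 in G30_SS and between 12.94 and 13.12 in G30_Cg. Vip lay between 11.75 and 13.03 in G30_SS and between 12.12 and 12.66 in G30_Cg, so the labelled cell class showed its defining genes in every array. Summed intensity of 10 measured oligodendrocyte markers was 1982 to 2363 in G30_SS and 1796 to 2177 in G30_Cg, against means of 17412 in G42_Homog_Cg and 18934 in GIN_Homog_Cg. The 11 microglial markers summed to 4438 to 4610 in G30_SS and 4271 to 4460 in G30_Cg, against 11440 in G42_Homog_Cg and 11243 in GIN_Homog_Cg. G30_SS arrays 1 and 2 and G30_Cg arrays 2 and 3 were scanned on 1 day, G30_Cg array 1 on an earlier and G30_SS array 3 on a later day. G30_Cg array 1 was also the single array of the 6 from another chip lot.

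The areas differed at few genes. Of 9295 tested genes, 17 (0.183%) passed an adjusted p of 0.05 in limma after Benjamini-Hochberg adjustment: 15 were higher in G30_SS (0.161%) and 2 were lower (0.0215%). At an unadjusted p below 0.05 there were 523 genes (5.63%), 300 higher (3.23%) and 223 lower (2.4%). The same contrast of areas in layer 5 pyramidal neurons called 147 genes (1.58%), and the contrast of G42_Homog_Cg with GIN_Homog_Cg called 1 (0.0108%). Only 21 genes (0.226%) differed by 2-fold or more between G30_SS and G30_Cg in their means. The median absolute difference over all tested genes was 0.09, and the 95% interval of a single gene reached a median of 0.29 to either side of its estimate. That interval is not adjusted for the number of genes tested, and a call needed a larger difference. For a gene of median precision, a difference near or under that width could not be called with 3 arrays each. The small count of called genes does not exclude such differences.

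The count of called genes moved with the design. It was 44 with array weights, 35 with like ages as a block, 33 with scan day as a random block and 26 with the replicate number as a block. It was 8 with the actin 3′ to 5′ ratio as a covariate, 6 with scan day as a fixed block and 1 when the spread was taken from the 6 G30 arrays alone. With only the 4 arrays of the shared scan day in the G30 contrast it was 10, of which 5 were among the 17. All 17 genes kept their direction in every setting in which they were tested (Col19a1 was not tested with the filter at the 50th percentile), and 7 of them (Nefm, Nefl, Nrgn, Itpka, Zbtb18, Deptor and Baiap2) were called whichever 1 of the 6 arrays was left out. The other 10 each lost the call in at least 3 of those 6 settings. The count was 14, 34 and 13 without G30_SS arrays 1, 2 and 3, and 8, 11 and 13 without G30_Cg arrays 1, 2 and 3.

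The largest difference was in the neurofilament medium chain. Neurofilaments are the intermediate filaments of axons, and large projection neurons hold much more of them than small interneurons do. Nefm stood at 8.37, 8.82 and 9.53 in G30_SS arrays 1, 2 and 3, against 6.50, 6.66 and 6.54 in G30_Cg arrays. Every G30_SS array lay above every G30_Cg array, and the G30_Cg arrays lay close together. The difference was 2.34 ± 0.28 (a 5.05-fold higher level, limma adjusted p = 4.42e-06). In bulk pools such as these, fewer cells of a type and less RNA per cell cannot be told apart.

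The light chain Nefl, which forms filaments together with Nefm, stood at 10.06, 9.67 and 10.15 in G30_SS, against 8.16, 8.18 and 8.31 in G30_Cg. Again the groups did not overlap, and the difference was 1.74 ± 0.15 (3.35-fold, limma adjusted p = 3.86e-09). Nefl was the gene called in every alternative setting, with differences from 1.60 to 1.89. Nefh, the heavy chain, behaved differently among the arrays: it stood at 8.56, 8.93 and 8.74 in G30_SS, against 7.56, 8.90 and 8.37 in G30_Cg. Only G30_Cg array 1 was far below the others, and the difference of 0.46 ± 0.26 did not pass the test (limma adjusted p = 0.977). Among the 12 sorted groups of the study, Nefm and Nefl had their lowest means in G30_Cg (6.57 and 8.22) and their next lowest in G30_SS, and their highest in YFPH_SS (12.60 and 12.89). Of the 12 tested genes for neurofilaments and the axon cytoskeleton, 2 were called higher and 0 lower, against 0.161% and 0.0215% of all tested genes. Their median difference was 0.02, against 0.02 over all tested genes.

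Among the other called genes, 3 encode proteins of dendritic spines and the postsynaptic density. No list of such genes was counted. Spines are the small protrusions that receive most excitatory synapses on pyramidal neurons, while most cortical interneurons bear few of them. Neurogranin (Nrgn) binds calmodulin in spines. It stood at 11.24, 10.20 and 11.71 in G30_SS, against 8.83, 8.82 and 8.93 in G30_Cg, a difference of 2.19 ± 0.31 (4.57-fold, limma adjusted p = 0.00011). The G30_Cg arrays were nearly identical, and the G30_SS arrays spread widely, with array 3 highest and array 2 lowest.

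Itpka, the inositol trisphosphate kinase that binds spine actin, followed the same order of arrays. It stood at 9.46, 8.57 and 9.97 in G30_SS, against 7.65, 7.73 and 7.42 in G30_Cg, with a difference of 1.73 ± 0.19 (3.33-fold, limma adjusted p = 7.29e-07). Baiap2 (IRSp53), a scaffold between the postsynaptic density and actin, stood at 10.34, 9.65 and 10.83 in G30_SS, against 9.06, 9.26 and 9.16 in G30_Cg. Its difference was 1.11 ± 0.17 (limma adjusted p = 0.000383), without overlap and with G30_SS array 2 nearest to G30_Cg. Another Baiap2 probe set differed by 0.94 without overlap, and 2 dimmer ones differed by 0.17 and 0.02.

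Zbtb18 (RP58), a zinc finger repressor needed for the maturation of cortical projection neurons, stood at 10.16, 9.99 and 10.53 in G30_SS, against 8.60, 9.44 and 8.79 in G30_Cg. The groups did not overlap, though G30_Cg array 2 lay well above the other 2 of its group, and the difference was 1.28 ± 0.19 (limma adjusted p = 0.000238). The promoters of Nrgn and Itpka are printed because these genes moved together, and that of Zbtb18 because it encodes a factor with a known motif. Each runs from 250 bases before to 50 after a transcript start in RefSeq (build GRCm38.p6), read 5′ to 3′ on the gene's strand: Nrgn on the minus strand at chr9:37552696-37552995, Itpka on the plus strand at chr2:119742087-119742386, and the first of 5 listed starts of Zbtb18 on the plus strand at chr1:177442101-177442400. Capitals mark the RP58 motif ACATCTG or its reverse complement CAGATGT, each strand being searched.

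Nrgn: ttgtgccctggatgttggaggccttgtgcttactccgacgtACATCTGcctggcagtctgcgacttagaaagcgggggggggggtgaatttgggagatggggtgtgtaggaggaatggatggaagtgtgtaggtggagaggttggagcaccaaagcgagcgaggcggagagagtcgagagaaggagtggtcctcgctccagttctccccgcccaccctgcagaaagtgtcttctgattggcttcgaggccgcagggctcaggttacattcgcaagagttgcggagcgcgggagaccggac

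Itpka: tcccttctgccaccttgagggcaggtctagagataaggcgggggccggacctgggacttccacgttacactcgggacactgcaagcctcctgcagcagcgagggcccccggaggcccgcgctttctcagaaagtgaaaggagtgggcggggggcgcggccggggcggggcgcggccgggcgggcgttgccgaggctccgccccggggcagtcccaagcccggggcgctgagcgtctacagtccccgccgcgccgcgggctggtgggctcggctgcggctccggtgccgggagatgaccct

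Zbtb18: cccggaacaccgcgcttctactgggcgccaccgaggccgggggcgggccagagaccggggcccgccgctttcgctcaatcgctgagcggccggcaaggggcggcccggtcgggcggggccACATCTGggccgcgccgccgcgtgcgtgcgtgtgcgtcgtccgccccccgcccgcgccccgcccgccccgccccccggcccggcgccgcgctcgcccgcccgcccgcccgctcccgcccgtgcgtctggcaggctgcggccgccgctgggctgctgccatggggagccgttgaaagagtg

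The Nrgn window held 1 match at position -209 from the start, the printed Zbtb18 window 1 at -130, and the Itpka window none. Of the 17 called genes, 13 were in the promoter table and 3 of them (Nrgn, Zbtb18 and Kri1) held a match in at least 1 window. Of all 27025 genes listed 5.1% held one, as did 4.43% of all 32851 windows. Windows for Nefm, Nefl, Deptor and Lynx1 were not used here.

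Arpp21 and Arpp19 encode cAMP-regulated phosphoproteins, the first a calmodulin regulator rich in forebrain neurons and the second an inhibitor of protein phosphatase 2A. Arpp21 stood at 9.50, 10.02 and 10.08 in G30_SS, against 9.01, 9.34 and 8.84 in G30_Cg, a difference of 0.80 ± 0.15 (limma adjusted p = 0.0106). Its other 2 probe sets differed by 1.55 and 0.51, each without overlap. Arpp19 stood at 10.70, 10.01 and 10.23 in G30_SS, against 9.33, 8.90 and 9.56 in G30_Cg, a difference of 1.05 ± 0.22 (limma adjusted p = 0.0265), while its dimmest probe set differed by -0.02. For Lynx1, a membrane-anchored damper of nicotinic acetylcholine receptors, the levels were 10.14, 10.41 and 10.05 in G30_SS, against 9.25, 8.94 and 9.46 in G30_Cg. Here G30_SS array 2 was the highest, unlike for the spine genes, and the difference was 0.98 ± 0.22 (limma adjusted p = 0.04).

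The remaining genes called higher in G30_SS were of mixed function. Deptor, a subunit that inhibits the growth kinase mTOR, stood at 10.58, 10.41 and 10.91 in G30_SS, against 9.40, 9.27 and 9.49 in G30_Cg. The difference was 1.25 ± 0.19 (2.37-fold, limma adjusted p = 0.000251). Deptor was the 1 called gene with its highest mean of the 12 sorted groups in G30_SS (10.63). It stood at 8.65 in YFPH_SS, so its level in these layer 5 neurons was below that in G30_SS. It was not particular to G30_SS. In CT6_Cg, another sorted group of the cingulate cortex, its mean was 10.38. The CT6_Cg arrays ran from 9.996 to 10.94 and overlapped those of G30_SS. Itgav, the alpha V integrin subunit, stood at 9.53, 8.84 and 9.22 in G30_SS, against 8.09, 7.97 and 7.90 in G30_Cg (1.21 ± 0.27, limma adjusted p = 0.0463). The groups lay apart in the Itgav probe set with the highest mean, and its other 2 differed by 0.11 and -0.06.

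Klf9, a zinc finger factor induced by thyroid hormone and glucocorticoids, stood at 12.47, 12.52 and 12.39 in G30_SS, against 11.40, 11.86 and 11.84 in G30_Cg (0.76 ± 0.16, limma adjusted p = 0.0274). The G30_SS arrays were close together and G30_Cg array 1 was the lowest. Tjp1 (ZO-1), a junction scaffold, differed by 0.75 ± 0.16 (limma adjusted p = 0.0315), and the receptor tyrosine kinase gene Ltk by 0.74 ± 0.16 (limma adjusted p = 0.0375). Kri1, whose yeast homologue acts in ribosome assembly, differed by 0.45 ± 0.09 (limma adjusted p = 0.0283). All 3 separated the groups, with G30_SS array 3 highest in each. On the chromosomes, the 17 called genes lay on 9, and 2 pairs were adjacent protein-coding genes: Nefl with Nefm on chromosome 14, and Itpka with Ltk on chromosome 2.

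**Figure D1:**
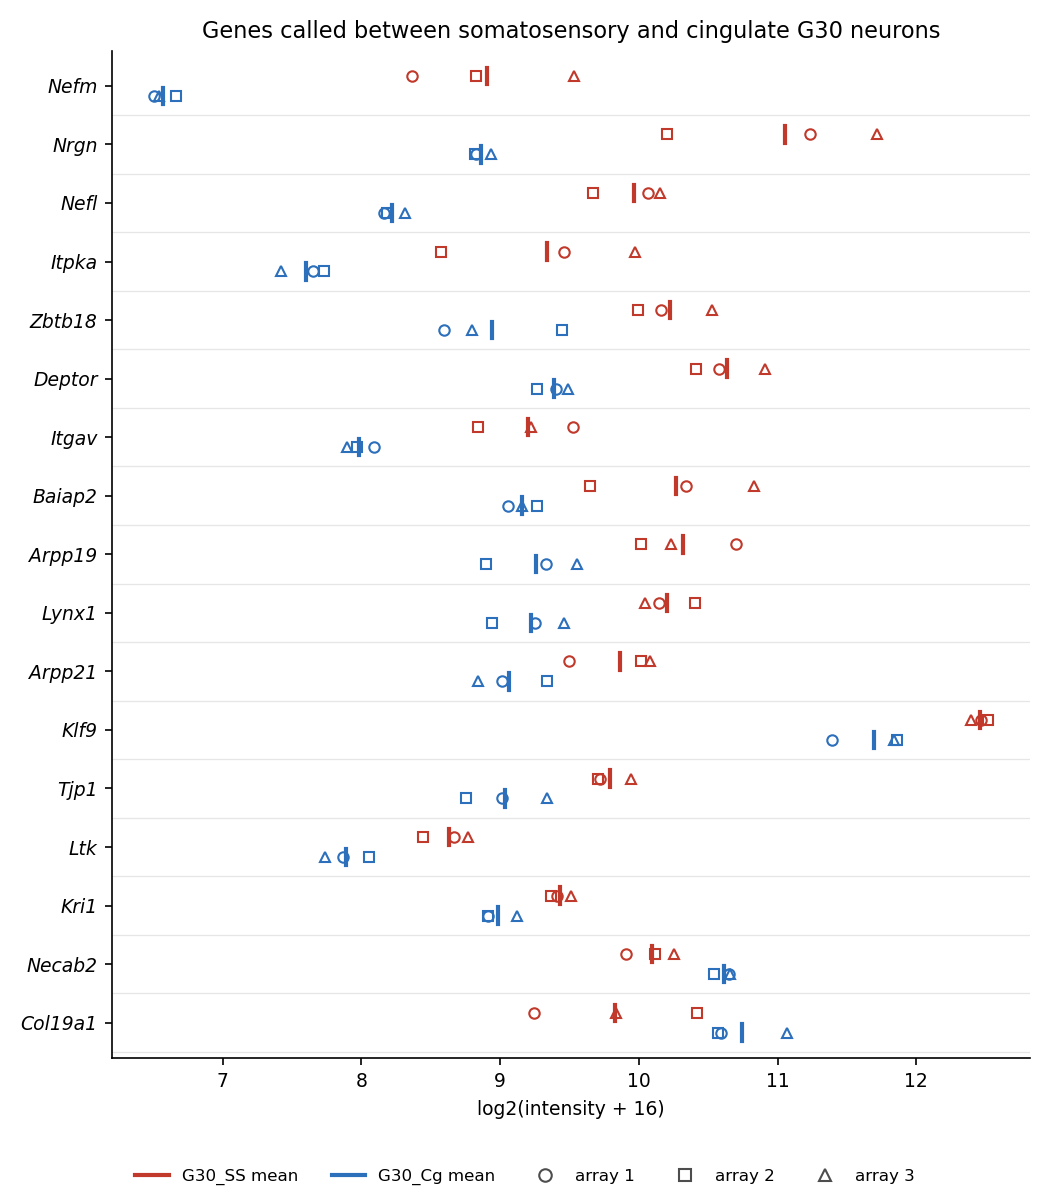
Log2(intensity + 16) of the 17 called genes in each array (circle, square and triangle for arrays 1, 2 and 3), G30_SS in red above G30_Cg in blue, with bars at the means of 3 arrays. The G30_Cg arrays of Nefm, Nrgn and Nefl lie close together while the G30_SS arrays spread to the right; only Necab2 and Col19a1 are lower in G30_SS.

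The 2 genes called lower in G30_SS were Col19a1 and Necab2. Col19a1, a non-fibrillar collagen made by interneurons, stood at 9.24, 10.42 and 9.83 in G30_SS, against 10.59, 10.57 and 11.07 in G30_Cg, and the difference was -0.91 ± 0.20 (limma adjusted p = 0.0463). G30_SS array 2 lay just below the G30_Cg arrays and array 1 far below. The other, dimmer Col19a1 probe set differed by -0.10, with overlap between the groups. Necab2, a neuronal EF-hand calcium-binding protein, stood at 9.91, 10.12 and 10.25 in G30_SS, against 10.65, 10.54 and 10.65 in G30_Cg (-0.52 ± 0.11, limma adjusted p = 0.04). Its mean in G30_Cg, 10.61, was the highest of the 12 sorted groups, and that in G30_SS was the next highest. Each of the 2 genes kept its call in only 1 of the 6 settings that leave out an array.

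Several class genes had lower values in G30_SS without passing the test. Calbindin (Calb1), a calcium buffer, stood at 10.60, 10.73 and 11.64 in G30_SS, against 12.10, 12.08 and 12.53 in G30_Cg (-1.24 ± 0.31, limma adjusted p = 0.0877). The arrays did not overlap. The cannabinoid receptor Cnr1, a marker of Cck basket cells, stood at 8.79, 9.58 and 9.90 in G30_SS, against 9.96, 10.08 and 10.28 in G30_Cg (-0.68 ± 0.17, limma adjusted p = 0.0774). For the serotonin receptor Htr3a the levels were 10.45, 11.15 and 10.26 in G30_SS, against 11.17, 11.10 and 11.36 in G30_Cg (-0.59 ± 0.14, limma adjusted p = 0.054). Here G30_SS array 2 reached the G30_Cg range and the other 2 arrays lay below it. Neurokinin B (Tac2) stood at 12.25, 11.90 and 10.59 in G30_SS, against 12.57, 12.42 and 12.24 in G30_Cg (-0.83 ± 0.21, limma adjusted p = 0.0957), and G30_SS array 3 was the lowest by 1.31. Each of these 4 genes passed the test when some 1 array was left out or another design was used, and the cause was not tested.

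Calretinin (Calb2) varied widely within both groups. It stood at 10.27, 9.70 and 8.19 in G30_SS, against 9.78, 11.68 and 10.70 in G30_Cg, so that G30_SS array 3 was the lowest by 1.51 and G30_Cg array 2 the highest by 0.98. The groups overlapped and the difference was -1.33 ± 0.37 (limma adjusted p = 0.153). Of the 17 tested genes for VIP, CCK and caudal eminence interneurons, 0 were called in either direction in limma, and the median difference was -0.08. At an unadjusted p below 0.05, 1 was higher and 5 were lower, against 3.23% and 2.4% of all tested genes.

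Other genes of the labelled cells had smaller differences than Calb2 and Htr3a, though that contrast between genes was not tested. Gad1 and Gad2, the 2 enzymes of GABA synthesis, differed by -0.01 ± 0.33 and -0.28 ± 0.19, and Slc32a1 by -0.02 ± 0.29, and of the 4 tested genes of GABA synthesis and transport 0 were called in limma or passed an unadjusted p below 0.05. Vip differed by 0.05 ± 0.21, with G30_SS array 3 (11.75) lowest, and Cck stood at 13.09, 13.07 and 13.10 in G30_SS, against 13.51, 13.27 and 13.30 in G30_Cg (-0.28 ± 0.14, limma adjusted p = 0.924). Neuropeptide Y (Npy) and Reln, both of neurogliaform cells, differed by 0.00 ± 0.35 and -0.00 ± 0.31. Gad2 and Cck were lower in every G30_SS array than in any G30_Cg array, as were 388 of all tested genes (4.17%). None of these 7 genes passed the test in any setting that was run. The 95% intervals of the difference ran from -0.67 to 0.65 for Gad1, from -0.72 to 0.72 for Npy and from -0.62 to 0.62 for Reln. Of 12 tested interneuron transcription factors 0 were called in limma, 1 being higher at an unadjusted p below 0.05, against 3.23% of all tested genes.

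Markers of the other main interneuron classes were not called. Peptide genes of somatostatin cells peaked in 1 array, and parvalbumin was higher in every G30_SS array than in any G30_Cg array. Somatostatin (Sst), the peptide of Martinotti cells, stood at 11.77, 13.13 and 10.21 in G30_SS, against 11.62, 10.70 and 10.61 in G30_Cg. G30_SS array 2 was above all others by 1.35 and G30_SS array 3 was the lowest of the 6, so the groups overlapped (0.73 ± 0.36, limma adjusted p = 0.884). Without G30_SS array 3 the difference was 1.47 and passed the test (limma adjusted p = 0.0098), and without G30_SS array 2 it was 0.01. Cortistatin (Cort), a related peptide, was also highest in G30_SS array 2 (10.07, against 9.18 and 9.57 in the other 2 G30_SS arrays and 9.13 to 9.18 in G30_Cg). Of 7 tested somatostatin cell genes 0 were called in limma, with 2 higher (Sst and Cort) and 1 lower (Calb1) at an unadjusted p below 0.05. Parvalbumin (Pvalb), the calcium buffer of fast-spiking cells, stood at 9.58, 9.28 and 9.17 in G30_SS, against 8.94, 8.97 and 9.08 in G30_Cg (0.35 ± 0.23, limma adjusted p = 0.999). Of 12 tested parvalbumin cell genes 0 were called and 4 were higher at an unadjusted p below 0.05, with a median difference of 0.22. Over all tested genes, 3.23% were higher and 2.4% lower at that threshold. Of the 12 parvalbumin cell genes, 11 had differences above 0, against 55.8% of all tested genes. The arrays separated upward for 3 of the 12 and downward for 0, against 6.71% and 4.17% of all tested genes.

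**Figure D2:**
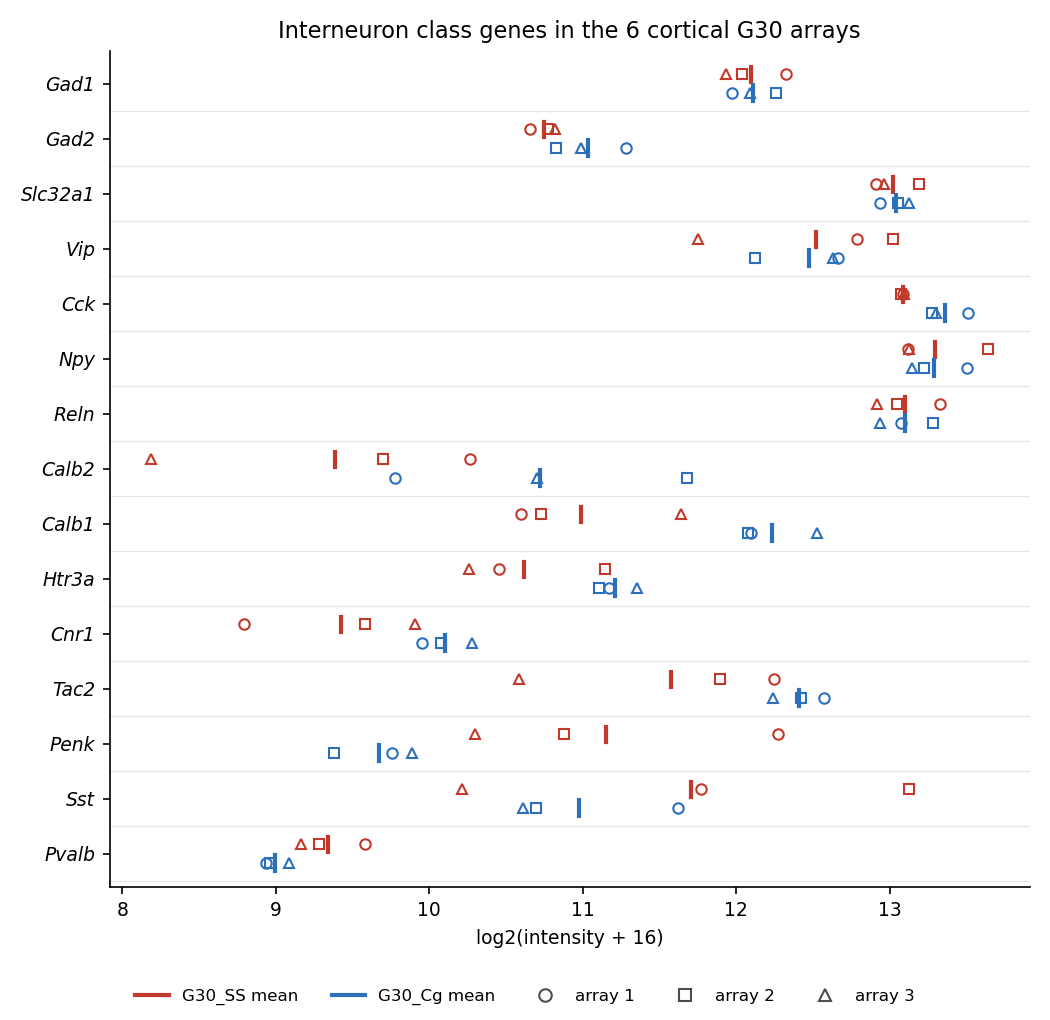
Log2(intensity + 16) of 15 interneuron class genes in the 6 arrays (circle, square and triangle for arrays 1, 2 and 3), G30_SS in red above G30_Cg in blue, with bars at the means. Gad1, Slc32a1, Npy and Reln overlap between the areas, while Calb2, Tac2, Penk and Sst have single arrays 0.98 to 1.51 away from the rest.

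Some other genes were highest or lowest in 1 array by a wide gap. Proenkephalin (Penk), an opioid peptide precursor, stood at 12.27, 10.88 and 10.30 in G30_SS, against 9.75, 9.38 and 9.89 in G30_Cg (1.48 ± 0.48, limma adjusted p = 0.366). All G30_SS arrays were above all G30_Cg arrays, but array 1 exceeded the next by 1.39, and the difference was 0.91 to 1.90 with 1 array left out. Rgs4, a brake on G-protein signalling, stood at 10.65, 9.07 and 10.02 in G30_SS, against 8.72, 8.81 and 8.61 in G30_Cg (1.20 ± 0.28, limma adjusted p = 0.054). The groups did not overlap, array 2 was the lowest of G30_SS, as for Nrgn, and the difference was 0.83 to 1.62 with 1 array left out. Prss23, a secreted serine protease, was at 7.65 in G30_Cg array 1 and at 9.77 to 11.10 in the other 5 arrays, a gap of 2.13.

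Counted over all tested genes, arrays at least 2-fold above or below all the other 5 were few: G30_SS array 1 was above for 2 and below for 4, G30_SS array 2 above for 2 and below for 0, and G30_SS array 3 above for 0 and below for 7. In G30_Cg, array 1 was below for 1 gene, and no other such gene was found in that group. Ggps1, an enzyme of isoprenoid synthesis, had the widest such gap in G30_SS: 7.40 in array 1, against 9.13 or more in the other 5 arrays. The sialyltransferase gene St6galnac5 was at 8.53 in G30_SS array 3 and at 10.09 or more elsewhere. Set against the other 2 arrays of its own group, G30_SS array 1 differed 2-fold for 57 genes, array 2 for 19 and array 3 for 55, and G30_Cg arrays 1, 2 and 3 for 22, 18 and 5. The median SD over 3 arrays was 0.14 in G30_SS and 0.12 in G30_Cg, and over the 14 groups it ran from 0.10 to 0.17.

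Whole profiles did not separate the areas. Pearson's r across the tested genes, which are not independent replicates, was 0.961 to 0.984 between arrays of 1 area (6 pairs) and 0.962 to 0.983 between areas (9 pairs). Among the other 41 arrays, the nearest to G30_SS array 1 was G30_Cg array 2, and the nearest to G30_SS array 2 was G30_Cg array 3. All 4 were scanned on the same day, and the members of each of these pairs were also of like age. G30_SS array 3 was nearest to G30_SS array 2, and each G30_Cg array was nearest to another G30_Cg array.

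**Figure D3:**
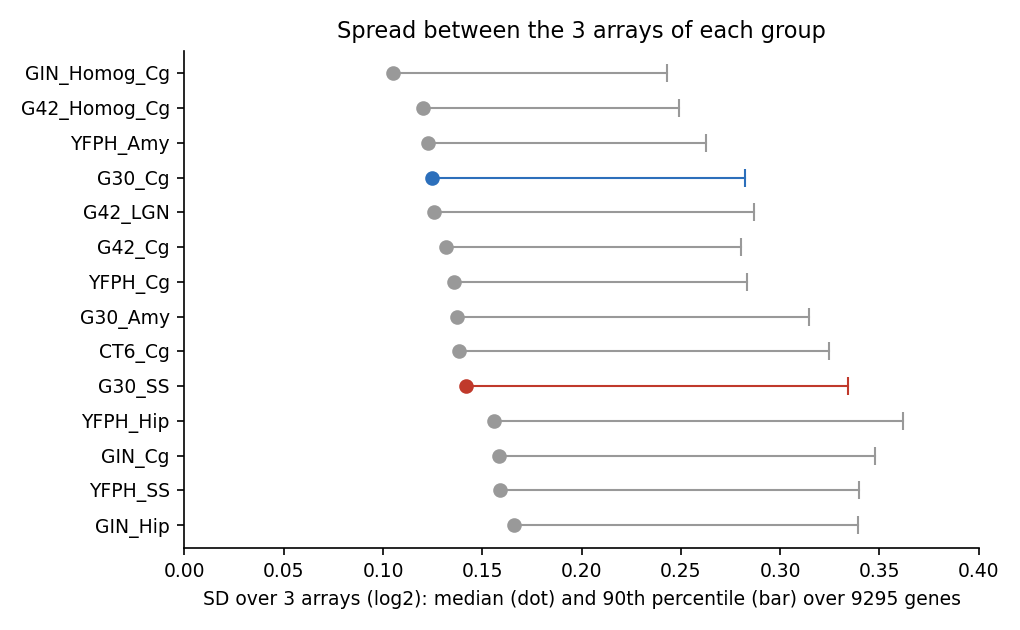
SD over the 3 arrays of each of the 14 groups, as the median over tested genes (dot) and the 90th percentile (bar) in log2 units, sorted from low to high. G30_SS (red) has a median of 0.14 and G30_Cg (blue) of 0.12, both within the range of 0.10 to 0.17 over the groups.

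Most of the genes called higher in G30_SS were also genes of layer 5 pyramidal neurons. Of those 15, 12 (80%) were called higher in YFPH neurons than in other interneurons, against 16.7% of all tested genes. That contrast set the average of YFPH_SS and YFPH_Cg against that of GIN_Cg and G42_Cg and used no G30 array. The other 3 were Kri1 and Lynx1, which were not called in it, and Deptor, which was called lower. Nefm, Nefl, Nrgn and Itpka are among the 12. Their values in these arrays were known beforehand, so the count is not independent evidence of a direction. Of the 624 genes whose G30_SS arrays all lay above the G30_Cg arrays (6.71% of those tested), 128 (20.5%) were called higher in YFPH neurons and 176 (28.2%) were called lower there, against 16.7% and 19% of all tested genes. Of the 388 genes whose G30_SS arrays all lay below, 93 (24%) were called higher in YFPH neurons and 79 (20.4%) lower. Across the 15 genes, the highest G30_SS value was in array 3 for 11, in array 1 for 2 and in array 2 for 2. The lowest was in array 2 for 11, in array 1 for 2 and in array 3 for 2. G30_SS array 3, the highest for most, held 54 cells, was from the oldest mouse of its group and was the array scanned later, while array 2, the lowest for most, held 66 cells.

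Set on the linear scale against the mean YFPH_SS intensity, 13 of these 15 genes were below the layer 5 level in every G30_SS array. Deptor and Kri1 were above it: Deptor was at 393%, 350% and 494% of it and Kri1 at 146%, 142% and 157% in G30_SS. Nrgn reached 35.6%, 17.3% and 49.7% of it in G30_SS arrays 1, 2 and 3, against 6.51%, 6.48% and 7.02% in G30_Cg arrays. Itpka reached 27.6%, 14.7% and 39.8% in G30_SS, against 7.44%, 7.89% and 6.25% in G30_Cg. In both genes the G30_SS arrays kept 1 order, and every one of them was above every G30_Cg array. Baiap2 reached 41.0%, 25.2% and 57.7% in G30_SS, against 16.6%, 19.2% and 17.8% in G30_Cg, and Zbtb18 reached 31.1%, 27.7% and 40.3% in G30_SS, against 10.2%, 18.8% and 11.8% in G30_Cg. Nefl and Nefm stood lower on that scale: Nefl was at 13.8%, 10.4% and 14.7% in G30_SS, against 3.53%, 3.59% and 3.95% in G30_Cg, and Nefm at 5.05%, 7.03% and 11.6% in G30_SS, against 1.20%, 1.37% and 1.24% in G30_Cg. Among these 6 genes the share in G30_SS array 3 ran from 11.6% for Nefm to 57.7% for Baiap2. Other interneurons carried some of these genes as well. Mean intensity of Nefl was 2295 in GIN_Cg and 1869 in G42_Cg, against 993 in G30_SS. For Nefm it was 1020 and 1060, against 491 in G30_SS. Nrgn was at 1381 in GIN_Cg and 410 in G42_Cg, against a mean of 2301 in G30_SS and 1162 in its array 2. Itpka, Baiap2 and Zbtb18 had lower means in GIN_Cg and G42_Cg than in G30_SS.

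Some other pyramidal genes, chosen after their values were seen, differed less. Crym, a thyroid hormone binding protein of layer 5 neurons, was at 2.83%, 2.56% and 2.49% of the YFPH_SS intensity in G30_SS, against 2.07%, 2.41% and 2.25% in G30_Cg. Fezf2, the factor that specifies subcerebral projection neurons, was at 6.60%, 6.64% and 7.14% in G30_SS, against 7.13%, 7.33% and 7.09% in G30_Cg. Both were low in all 6 arrays, and neither was called (limma adjusted p = 0.999 for each). Chn1, a Rac regulator of projection neurons, ran the other way, at 18.8%, 15.0% and 17.2% in G30_SS, against 22.7%, 24.6% and 22.7% in G30_Cg (-0.45 ± 0.22, limma adjusted p = 0.890). Ptk2b, a calcium-activated tyrosine kinase, was at 23.2%, 16.2% and 34.5% in G30_SS, against 12.6%, 13.5% and 18.5% in G30_Cg (0.65 ± 0.22, limma adjusted p = 0.401). Its G30_SS arrays kept the order of Nrgn and Itpka, but array 2 fell within the G30_Cg range. The cortical glutamatergic factors Neurod2 and Tbr1 differed by 0.05 ± 0.14 and 0.06 ± 0.15 on the log2 scale, and Neurod6 (4.63 to 5.04 in G30_SS and 4.64 to 5.05 in G30_Cg) was too dim to be tested.

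Over the whole list of 40 pyramidal markers, 33 were measured and 29 tested: 6 were called higher (Nefm, Nefl, Nrgn, Itpka, Arpp21 and Baiap2) and 0 lower, and the median difference was 0.19 against 0.02 over all tested genes. Of the 29, 23 differences were above 0, and 10 genes separated the arrays upward and 2 downward. Over all tested genes, 55.8% of differences were above 0, 6.71% separated the arrays upward, 4.17% did so downward and 0.161% were called higher. Nefm, Nefl, Nrgn and Itpka were put on this list with their values in these arrays known, so its count is not independent evidence of a direction. Its summed intensity was 28002, 23677 and 33117 in G30_SS, against 19511, 21328 and 19673 in G30_Cg. All 3 G30_SS sums lay above the G30_Cg sums. The mean sum was 72109 in YFPH_SS, 24835 in GIN_Cg and 26892 in G42_Cg, and no member was at 0 in any of the 6 arrays.

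Another list was built without any G30 array. It held the 24 genes called and at least 8-fold higher in the average of YFPH_SS and YFPH_Cg than in that of GIN_Cg and G42_Cg. A member could thus be less than 8-fold above 1 of the 2 interneuron groups. Of the 24, 3 were called higher in G30_SS (Nrgn, Itpka and Arpp21) and 0 lower, against 0.161% and 0.0215% of all tested genes. The values of Nrgn and Itpka in these arrays were known beforehand, so this count is not independent evidence of a direction. At an unadjusted p below 0.05 in limma, 7 were higher and 3 lower, against 3.23% and 2.4% of all tested genes. Differences were above 0 for 17 of the 24, against 5186 of 9295 (55.8%) over all tested genes. The median share of the YFPH_SS intensity over the list was 32.8%, 31.9% and 47.6% in G30_SS arrays 1, 2 and 3, against 20.6%, 27.2% and 21.7% in G30_Cg arrays. In GIN_Cg and G42_Cg these shares were 6.04% to 7.50% and 6.11% to 7.85%. Such low values were fixed by the choice of the list, so they are no scale for the G30 shares. The shares in unsorted cells, which did not choose the list, were 70.01% to 79.4% in G42_Homog_Cg and 66.5% to 72.3% in GIN_Homog_Cg. Part of this list was high in G30 cells of both areas: Lamp5, a membrane protein of neurogliaform cells that layer 5 neurons also carried (12.77 in YFPH_SS), was at 12.41, 12.45 and 12.53 in G30_SS, against 12.57, 12.32 and 12.37 in G30_Cg. A share on this scale does not count pyramidal cells. The Gapdh probe sets at the 3′ and 5′ ends, whose log2 ratio grows as RNA is degraded or shortened in amplification, gave ratios of 2.53, 2.90 and 2.24 in G30_SS, against 2.41, 2.51 and 2.91 in G30_Cg, and so overlapped. The same ratio for actin did not overlap, at 2.96, 3.07 and 3.16 in G30_SS, against 2.20, 2.76 and 2.84 in G30_Cg. With the actin ratio as a covariate, an alternative chosen after seeing the data, 8 of the 17 genes remained called and no others were: Nefm, Nefl, Nrgn, Itpka, Zbtb18, Deptor, Baiap2 and Arpp21. Whether pyramidal RNA in the pools, the picked cell types, the scan day or the mouse's age had a part in the called genes was not tested.

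**Figure D4:**
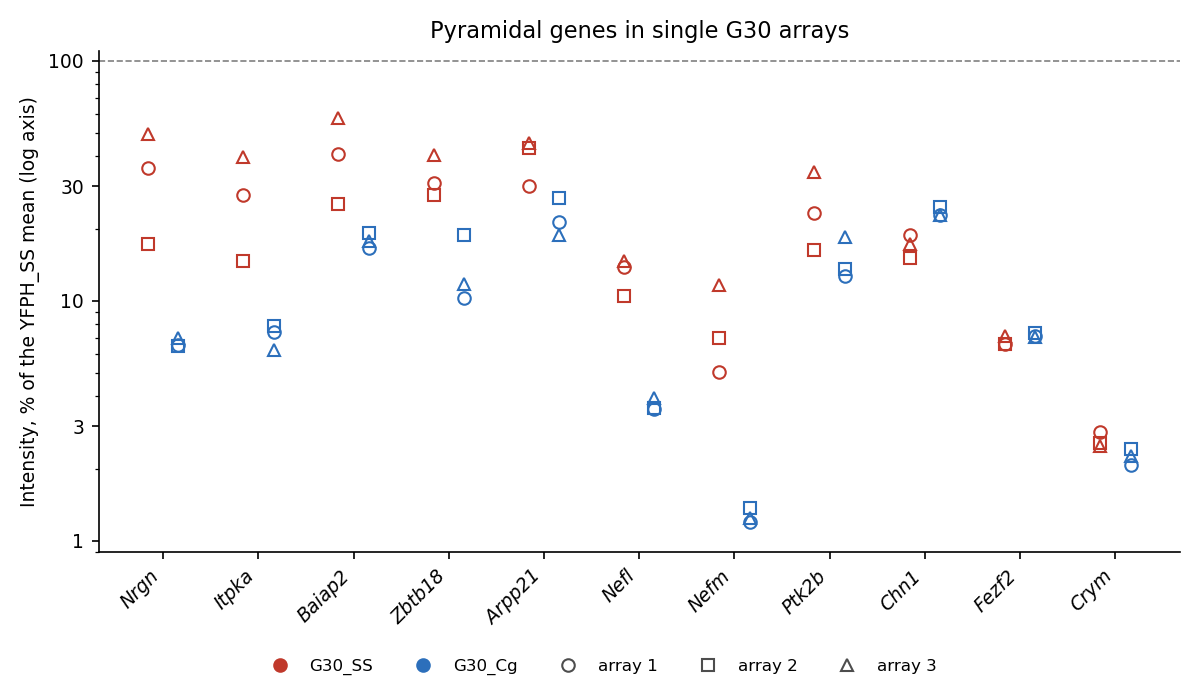
Intensity of 11 pyramidal genes in each G30 array as a percent of the mean YFPH_SS intensity (log axis, dashed line at 100%), G30_SS in red left of G30_Cg in blue, with circle, square and triangle for arrays 1, 2 and 3. Nrgn, Itpka and Baiap2 run highest in G30_SS array 3 and lowest in array 2, while Chn1, Fezf2 and Crym are no higher, or barely higher, in G30_SS.

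The same areas were then compared in layer 5 pyramidal neurons, with no array shared between the 2 contrasts. Of the 17 genes called in G30 cells and the 147 called in YFPH cells, 2 were in both. They were 11.8% of the G30 genes, against 1.58% of all tested genes called in YFPH cells. They were 1.36% of the YFPH genes, against 0.183% of all tested genes called in G30 cells. Both had opposite signs in the 2 lines: Itpka differed by 1.73 in G30 and by -0.74 ± 0.19 in YFPH cells, and Ltk by 0.74 in G30 and by -0.60 ± 0.16 in YFPH cells. In YFPH cells the area difference was 0.03 ± 0.31 for Nrgn, 0.01 ± 0.17 for Baiap2, 0.51 ± 0.15 for Nefl and 0.79 ± 0.28 for Nefm, none of them called. The heavy chain Nefh, not called in G30 cells, was called higher in YFPH_SS (1.63 ± 0.26, limma adjusted p = 0.000136). The test of the difference between the lines, the area by line interaction, called 43 genes (0.463%), 8 of them among the 17. The interaction was 2.48 ± 0.27 for Itpka (limma adjusted p = 5.86e-07), 1.85 ± 0.27 for Deptor (5.74e-05), 2.16 ± 0.44 for Nrgn (0.00915) and 1.24 ± 0.22 for Nefl (0.00121). Nefm did not pass it, at 1.55 ± 0.40 (limma adjusted p = 0.0879).

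Genes with the largest area differences in pyramidal neurons were for the most part not called in G30 cells. Parvalbumin differed by 3.18 ± 0.23 in YFPH cells and by 0.35 ± 0.23 in G30 cells, an interaction of -2.83 ± 0.33 (limma adjusted p = 7.39e-07). Rcan2, an inhibitor of calcineurin, differed by 2.70 ± 0.23 in YFPH and by 0.13 ± 0.23 in G30 cells, and the sodium channel subunit gene Scn3b by -2.29 ± 0.17 in YFPH and by -0.11 ± 0.17 in G30 cells. The peptide gene Grp was lower in somatosensory layer 5 neurons, by -3.05 ± 0.27, while in G30 cells it stood at 7.86, 7.28 and 8.65 in G30_SS, against 6.78, 6.86 and 6.90 in G30_Cg (1.08 ± 0.27, limma adjusted p = 0.0957). The chemokine gene Cxcl12 had the same pattern, with -2.18 ± 0.32 in YFPH cells and 7.37, 7.88 and 8.34 in G30_SS, against 6.78, 6.83 and 6.84 in G30_Cg (1.04 ± 0.32, limma adjusted p = 0.317). For both genes the G30 arrays did not overlap, and the sign was opposite to that in layer 5 neurons. Of the 147 genes called in YFPH cells, 104 (70.7%) had the same sign in G30 cells, against 59.1% of all tested genes, and with the G30 arrays of the shared scan day alone the shares were 63.9% and 53%.

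**Figure D5:**
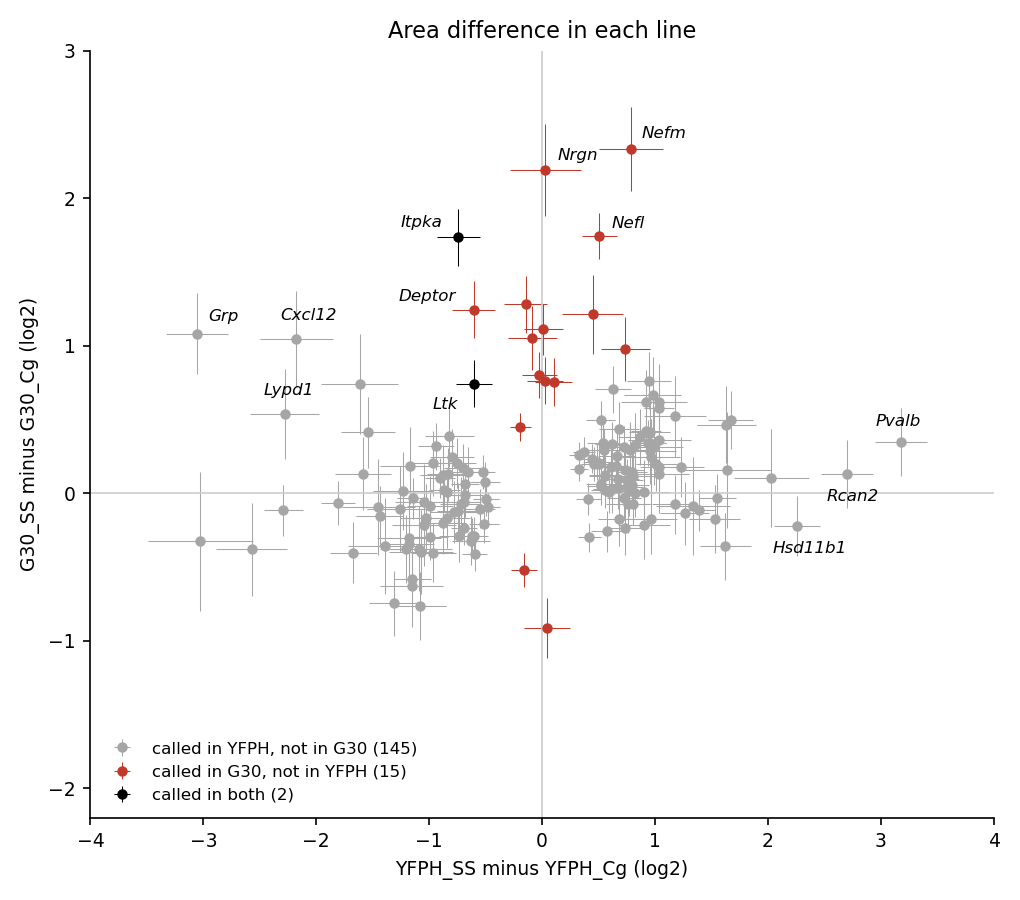
Area difference in G30 cells (G30_SS minus G30_Cg, log2, vertical) against that in layer 5 neurons (YFPH_SS minus YFPH_Cg, log2, horizontal), with standard errors, for the genes called in G30 (red, 15), in YFPH (grey, 145) or in both (black, 2). The red points rise near the vertical axis and the grey points spread along the horizontal one; Itpka and Ltk lie in the upper left.

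The other gene groups examined held no called gene. Among 19 tested genes of cortical area patterning 0 were called or passed an unadjusted p below 0.05 in limma, with a median difference of 0.06. Its member Lypd1, a damper of nicotinic receptors, had the largest difference (0.54 ± 0.30) and stood at 9.97, 8.41 and 7.72 in G30_SS, against 7.73, 8.26 and 8.48 in G30_Cg, so that it was G30_SS array 1 alone that lay above the rest. At an unadjusted p below 0.05 in limma, 3.23% of all tested genes were higher. Sodium and calcium channel genes numbered 17, with 0 called, 4 higher at that threshold and a median difference of 0.18. The P/Q-type calcium channel gene Cacna1a led them, at 9.27, 9.01 and 9.43 in G30_SS, against 8.37, 8.45 and 8.67 in G30_Cg (0.74 ± 0.20, limma adjusted p = 0.144), without overlap. Of 26 potassium and HCN channel genes 0 were called and 0 passed an unadjusted p below 0.05, and the largest differences were 0.48 ± 0.27 for the BK channel gene Kcnma1 and 0.46 ± 0.24 for the A-type channel gene Kcnd2.

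Receptor genes gave values of either sign. Over all tested genes, 3.23% were higher and 2.4% lower at an unadjusted p below 0.05 in limma, the shares for the counts below. Among 15 modulator receptor genes 0 were called and 3 were lower at an unadjusted p below 0.05, Cnr1, Htr3a and the somatostatin receptor Sstr2. Sstr2 stood at 9.16, 8.64 and 8.48 in G30_SS, against 9.61, 9.38 and 9.79 in G30_Cg (-0.83 ± 0.27, limma adjusted p = 0.363), without overlap. Of 9 glutamate receptor genes the AMPA receptor subunit gene Gria1 had the largest difference (-0.55 ± 0.21, limma adjusted p = 0.594) and 0 were called, 1 being lower at an unadjusted p below 0.05. Of 7 GABA-A receptor genes 0 were called, with 1 higher (Gabrd, 0.42 ± 0.13) and 1 lower (Gabra2, -0.60 ± 0.28) at an unadjusted p below 0.05. Early response genes, which can rise during dissociation, numbered 20, with 0 called and 0 at an unadjusted p below 0.05. Egr1 was at 10.60 in G30_Cg array 1 and at 11.52 to 11.97 in the other 5 arrays, so the low array was in G30_Cg. Astrocyte (13), oligodendrocyte (4), microglial (9), vascular (10) and blood (2) genes had 0 called, and 1 vascular gene was lower at an unadjusted p below 0.05.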

How the data were processed

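RNA of hand-sorted or unsorted mouse forebrain cells was measured on 42 arrays, 3 for each of 14 groups. Values are linear probe set intensities as deposited by the authors, with array medians from 285.83 to 330.345; the sources used here do not say how they were summarised and scaled. Scan day and chip lot came from the deposited array records, and cell number and age from the labels. The number of arrays limits the precision.

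Values were turned into log2 of the intensity plus 16. Control probe sets (64) and those with several genes (691) or none listed (1555) were left out, and 12393 genes, named from a 2016 annotation, were each represented by their brightest probe set. Genes under the 25th percentile of means (log2 7.77) were not tested, which left 9295. Group means were estimated in limma 3.58.1 (R 4.3.3, 28 residual degrees of freedom) from all 42 arrays together, with a trended variance prior and Benjamini-Hochberg adjustment over all tested genes and calls at an adjusted p below 0.05. The fit was tested on simulated data. Standard errors and p-values in the text come from this fit unless a setting is named.

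The comparison, its gene lists and the rule for named genes were chosen with earlier results of these data known. Genes named were those called, the 12 widest non-overlapping differences each way, fixed class genes, up to 4 per list, up to 6 per array and direction by the gap to the other arrays, and up to 8 per direction of the interaction; the text gives a selection of these by role. Chn1, Crym, Fezf2, Lamp5, Neurod2, Neurod6, Ptk2b and Tbr1 were chosen after their values were seen. Probe sets were matched to promoters by symbol. Alternatives were other offsets, normalizations, filters and probe sets, array weights, the compared arrays only, scan day, replicate number or like age as a block, the Gapdh ratio as a covariate, and each array left out; the 4 arrays of the shared scan day and the actin ratio as a covariate were added after seeing the data. Slc17a7 was not analysed here.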

Additional observations from a re-analysis of the deposited data

Results flagged for a closer look

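The results below were picked out because the area difference itself differed between the G30 and YFPH lines, by the interaction term of limma with Benjamini-Hochberg adjustment (each value is the G30 difference minus the YFPH difference, log2, with its standard error, n = 3 arrays in each of 4 groups). Among the genes called in G30 cells, the interaction was above 0 for the spine and projection neuron genes Itpka (2.48 ± 0.27, adjusted p = 5.86e-07), Nrgn (2.16 ± 0.44, 0.00915), Zbtb18 (1.43 ± 0.27, 0.00383) and Baiap2 (1.10 ± 0.25, 0.0268), and for the neurofilament gene Nefl (1.24 ± 0.22, 0.00121). It was also above 0 for the mTOR inhibitor gene Deptor (1.85 ± 0.27, 5.74e-05), for Ltk (1.35 ± 0.23, 0.000734) and for Kri1 (0.64 ± 0.13, 0.00958).

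Of the 32 genes called both in YFPH cells and in the interaction, 19 were lower in YFPH_SS than in YFPH_Cg with an interaction above 0, and 13 were higher with one below 0. Opposite signs are largely fixed by this selection, since the interaction subtracts the YFPH difference. Among the 19, besides Itpka and Ltk, were the peptide gene Grp (4.13 ± 0.39, adjusted p = 2.14e-08), the chemokine gene Cxcl12 (3.22 ± 0.46, 4.02e-05), Lypd1 (2.82 ± 0.43, 0.000126), the tubulin gene Tubb2b (2.19 ± 0.44, 0.0078) and the sodium channel subunit gene Scn3b (2.18 ± 0.24, 5.88e-07). For Lypd1 the G30 difference was set by G30_SS array 1: without that array it was -0.09. The 13 included Pvalb (-2.83 ± 0.33, adjusted p = 7.39e-07), the calcineurin inhibitor gene Rcan2 (-2.57 ± 0.33, 4.95e-06) and Hsd11b1, an enzyme that activates glucocorticoids (-2.48 ± 0.29, 7.39e-07).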

How the results depend on the processing

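The 17 genes called between G30_SS and G30_Cg kept their direction under every alternative in which they were tested, and the count became 44 with array weights, 8 with the actin ratio as a covariate, 33 with scan day as a random block, 6 with it as a fixed block, 1 with the compared arrays only, 35 with like ages as a block and 10 with only the shared scan day. Leaving out 1 array gave 8 to 34. With the replicate number as a block it was 26, and all 17 remained. Same-numbered arrays did not deviate together (correlations -0.0031, -0.0785 and -0.0522), so the numbers did not pair the arrays. Arrays of like age had correlations of 0.0678, 0.1559 and 0.0398, the first 2 of them sharing a scan day, and all other pairs were below 0. The main fit held no term for like age, and whether such arrays shared a mouse was not tested. Other settings gave 16 to 24. Nefl was called in all of them, and Nefm, Nrgn, Itpka and Deptor in all but the compared arrays only, with adjusted p of 0.0685, 0.163, 0.221 and 0.0747 there. For YFPH_SS minus YFPH_Cg (147) the count became 305 with array weights, 52 with the compared arrays only, 25 with scan day as a fixed block and 61 to 213 with 1 array left out. For the interaction (43) it became 88, 23 and 24 in the first 3 of these settings, 25 with only the shared scan day and 27 to 63 with 1 array left out. For G42_Homog_Cg minus GIN_Homog_Cg (1) it became 4 with every probe set, 52 with array weights, 0 with the compared arrays only and 0 to 2 with 1 array left out; scan day as a fixed block could not be fitted there. In each case the cause was not tested.

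The genes whose difference changed sign were not called under any alternative. Gad1 became 0.0096 with the Gapdh ratio, 0.0411 with scan day fixed and 0.0045 on the shared scan day, with -0.1249 to 0.071 when 1 array was left out. Slc32a1 became 0.0342 with quantile normalization, 0.0054 with the Gapdh ratio and 0.0039 with scan day as a random block (-0.1012 to 0.0411 with 1 array left out). Npy became -0.0162 with median centring and -0.1263 with the actin ratio (-0.1691 to 0.1107 with 1 array left out). Reln became 0.017 with quantile normalization, 0.0531 with array weights, 0.0309 with the Gapdh ratio and 0.0782 on the shared scan day (-0.1161 to 0.0921 with 1 array left out). Vip ran from -0.2023 to 0.4339 and Lypd1 from -0.0948 to 1.0271 with 1 array left out.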
